A study of Homo sapiens with 19 samples.

Results

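The genes described here are 35 fatty acid oxidation genes, out of the 19881 protein-coding genes with an annotated transcription start on the hg19 (GRCh37) genome. They were taken from a fixed list of gene symbols, and the nuclear receptor ERRα was counted as located at a gene when the centre of a ChIP-seq peak lay within 20 kb of any of its starts. Peaks within 1 kb of a start are called promoter peaks. By role, the genes act in activation and uptake (6 genes), carnitine transfer (5), the acyl-CoA dehydrogenase step (8), hydration, second oxidation and thiolysis (7), unsaturated fatty acids (3), electron transfer (3) and peroxisomal oxidation (3).

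ERRα was immunoprecipitated from HER2-amplified human breast cancer cell lines, and the 19 ChIP and input libraries gave 8 peak lists, 1 per condition. SKBr3 and BT-474 cells were serum-starved for 24 h and then given PBS as vehicle, 100 μM EGF or 100 μM heregulin (HRG) for 90 min. Parental pSKBr3 cells were left untreated, and LRSKBr3 cells, a lapatinib-resistant derivative, were grown in 2 μM lapatinib, an inhibitor of EGFR and HER2. Each SKBr3, pSKBr3 and LRSKBr3 list was called on 2 pooled ChIP libraries and 1 input, whereas each BT-474 list came from 1 ChIP library and used the input of vehicle-treated cells. In the comparison of LRSKBr3 with pSKBr3, the cell line and the drug cannot be told apart, and the labels do not say whether the resistant line is a clone. With 1 list per condition no difference between conditions could be tested, and counts are read beside the share of all protein-coding genes that met the same criterion.

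β-Oxidation breaks fatty acids down to acetyl-CoA. Acyl-CoA synthetases activate the fatty acid, the carnitine shuttle carries long chains into mitochondria, and cycles of dehydrogenation, hydration, a second oxidation and thiolysis shorten the chain, with electrons passed to the respiratory chain. ERRα is an orphan nuclear receptor known for the control of mitochondrial energy genes, among them genes of fatty acid oxidation, and it binds an extended half-site called the ERRE.

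The ERRE was searched on both strands as TCAAGGTCA, and in a looser form as TNAAGGTCA, which includes the former. Overlapping peaks of the 8 lists near the 35 genes were merged into 127 sites, of which 13 held TCAAGGTCA and 33 held TNAAGGTCA. The GRCh37 sequences below show words that lay under peaks of 5 or more lists, together with a promoter word of HADH, so that the word can be seen in the sites described below as holding it. They are read 5′ to 3′ on the strand of the word with the word in capitals. The first 3 were covered by a peak in all 8 lists. A word is a match of letters and does not show that ERRα bound it.

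CPT1A, intron of CPT1A, minus strand, chr11:68603290-68603328: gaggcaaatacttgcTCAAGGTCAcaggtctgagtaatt
ACAD10, intron of the neighbouring gene BRAP, plus strand, chr12:112111512-112111550: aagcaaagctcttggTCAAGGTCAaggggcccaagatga
ECI1, intron of the neighbouring gene E4F1, minus strand, chr16:2276676-2276714: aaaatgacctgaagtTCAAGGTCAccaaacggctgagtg
ETFB, intron of ETFB, plus strand, chr19:51865961-51865999: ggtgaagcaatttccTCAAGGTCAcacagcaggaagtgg
ACOX3, intron of ACOX3, plus strand, chr4:8386853-8386891: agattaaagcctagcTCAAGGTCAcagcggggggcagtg
ACSL6, intron of ACSL6, plus strand, chr5:131343625-131343663: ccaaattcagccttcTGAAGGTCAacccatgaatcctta
ACADM, intergenic, upstream, minus strand, chr1:76189555-76189593: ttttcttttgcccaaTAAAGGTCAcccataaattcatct
CPT2, intergenic, upstream, minus strand, chr1:53661989-53662027: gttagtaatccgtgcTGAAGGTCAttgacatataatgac
HADH, intergenic, upstream, plus strand, chr4:108910421-108910459: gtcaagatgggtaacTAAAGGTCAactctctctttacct

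The ETFB word lay under peaks of 6 lists, the ACOX3 word under those of the 5 SKBr3, pSKBr3 and LRSKBr3 lists, and the ACSL6 word under those of 6 lists. The ACADM word was covered in all 8 lists and lies 542 bp from a start, the CPT2 word in 7 lists and 456 bp, and the HADH word in 3 lists and 430 bp. Of the words under peaks of 5 or more lists, 2 are not shown. A TAAAGGTCA word in an untranslated exon of ETFDH was covered in all 8 lists, 296 bp from a start, and a second TCAAGGTCA word in the CPT1A intron, chr11:68601373-68601381, was covered in 6 lists. Many of the sites described below, among them those at the promoters of CPT1A, CRAT and ACAT1 and between HADHA and HADHB, held neither form of the word.

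No promoter peak of the 35 genes held TCAAGGTCA anywhere in the peak, in any list. That was 0 of 14 to 30 promoter peaks per list, and the upper bounds of the 95% Wilson intervals ranged from 11.4% in LRSKBr3 to 21.5% in BT-474 on EGF. Among promoter peaks of all genes, the word lay in 6.92% (pSKBr3) to 13.9% (BT-474 EGF). The looser word lay in 14.3% (pSKBr3) to 29.4% (BT-474 vehicle) of the promoter peaks of the 35 genes, against 12.2% (pSKBr3) to 23.9% (BT-474 EGF) of all promoter peaks. Within 100 bp of the peak centre, TCAAGGTCA was found at 3.77% (SKBr3 vehicle) to 7.27% (BT-474 vehicle) of all peaks near the 35 genes and at 5.57% (SKBr3 HRG) to 8.10% (pSKBr3) of all peaks of a list. Peaks of different lists share sites, so these shares are not independent of each other, and the intervals cover counting error only.

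ERRα peaks were found at most of the 35 genes in every list. In SKBr3, a peak lay within 20 kb of 24 genes on vehicle (68.6%, all genes 54.6%), 25 on EGF (71.4%, all genes 56.8%) and 29 on HRG (82.9%, all genes 67.0%). Vehicle-treated BT-474 cells had peaks at 28 genes (80.0%, all genes 53.4%), EGF-treated cells at 24 (68.6%, all genes 42.7%) and HRG-treated cells at 26 (74.3%, all genes 55.8%). The pSKBr3 list had a peak at 26 genes (74.3%, all genes 57.6%) and the LRSKBr3 list at 31 (88.6%, all genes 70.6%). The share of the fatty acid oxidation genes was thus above that of all genes in each of the 8 lists.

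At promoters, the SKBr3 lists had a peak at 16 genes on vehicle (45.7%, all genes 23.6%), 17 on EGF (48.6%, all genes 22.6%) and 24 on HRG (68.6%, all genes 36.1%). The BT-474 lists had one at 15 genes on vehicle (42.9%, all genes 19.6%), 10 on EGF (28.6%, all genes 11.5%) and 12 on HRG (34.3%, all genes 17.0%). pSKBr3 had a promoter peak at 18 genes (51.4%, all genes 31.8%) and LRSKBr3 at 23 (65.7%, all genes 42.2%). The count was highest on HRG in SKBr3 and on vehicle in BT-474. The 35 genes have a median of 10 annotated starts against 5 for all genes, which widens the region searched. When only the start farthest 5′ was used, a promoter peak was found at 7 genes (BT-474 EGF, all genes 6.21%) to 19 genes (LRSKBr3, all genes 32.5%).

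**Figure D1:**
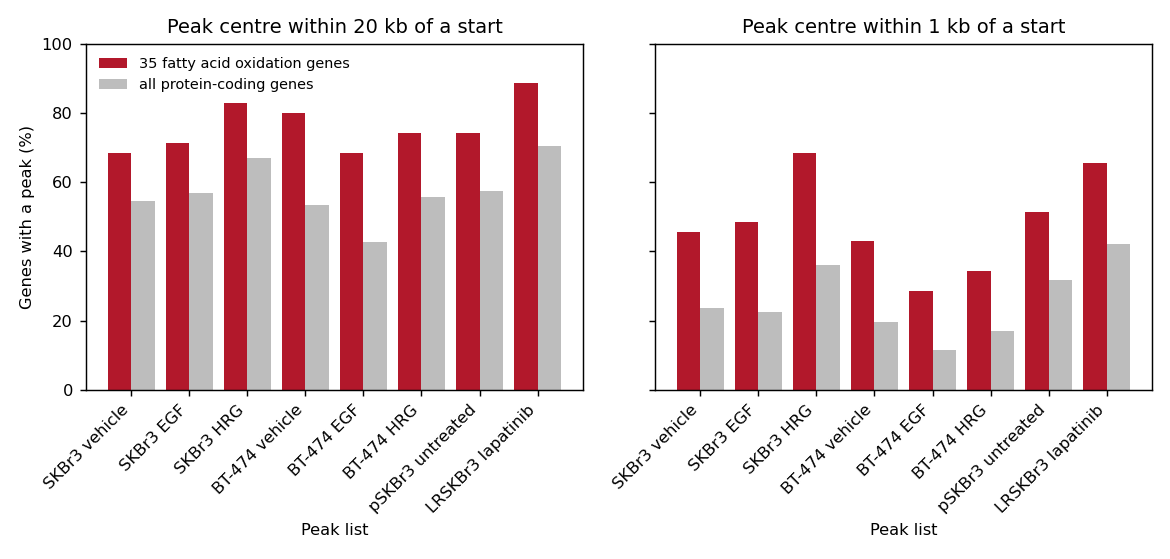
Percent of genes with an ERRα peak centre within 20 kb (left) or 1 kb (right) of a start in each of the 8 peak lists. Red bars are the 35 fatty acid oxidation genes and grey bars all 19881 protein-coding genes, with 1 list per condition and no error bars. The red bar is above the grey bar in each list, from 68.6% to 88.6% within 20 kb.

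A peak within 20 kb in all 8 lists was found at 16 genes (45.7%, all genes 27.1%), namely ACSL1, ACSL3, ACSL5, CPT1A, CRAT, ACADM, ACAD10, HADH, HADHA, HADHB, HSD17B10, ECI1, ECI2, ETFDH, ACOX3 and EHHADH. Promoter peaks in all 8 lists were found at 6 genes (17.1%, all genes 6.63%), namely CPT1A, CRAT, ACADM, ACAD10, HADHB and ETFDH. ACADS, the short-chain acyl-CoA dehydrogenase, was the only gene with no peak in range in any list (2.86%, all genes 14.6%). Its nearest peak centre lay between 38861 bp (pSKBr3) and 123215 bp (SKBr3 EGF) away. With peaks of P at most 1e-10, 2 genes had no peak in range in any list (all genes 24.8%). With lists of equal size, 3 had none (all genes 23.9%). By site rather than by gene, 18 of the 127 sites were present in all 8 lists (14.2%, all 90452 sites 7.10%) and 44 in a single list (34.6%, all sites 41.6%). Close to the 20 kb limit, a peak 19633 bp from a HADHA start in LRSKBr3 was counted, and peaks 21937 bp from ACAD8 on SKBr3 vehicle and 23175 bp from ACAT1 on BT-474 HRG were not.

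**Figure D2:**
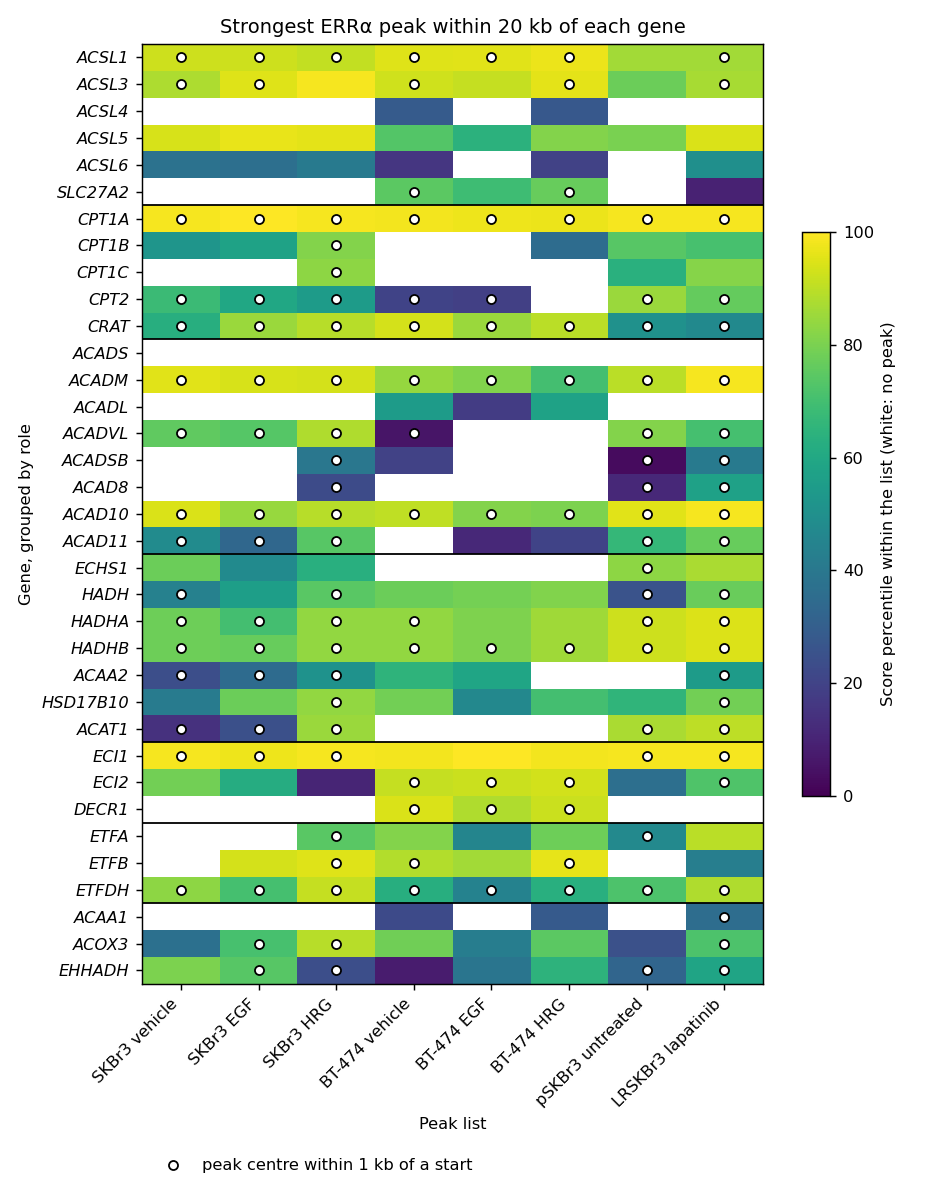
Strongest ERRα peak within 20 kb of each of the 35 genes (rows, grouped by role) in each of the 8 lists (columns). Colour gives the percentile of the score of the peak among all peaks of its own list, white marks no peak in range and a circle a peak centre within 1 kb of a start. CPT1A and ECI1 are yellow throughout (97.3 to 100 for ECI1), ACADS is white throughout, and DECR1 is coloured in the 3 BT-474 columns only.

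Scores could be compared only within a list, because a MACS score depends on the depth of its libraries, which is unknown. Each peak is therefore given as the percentile of its score in its own list, with 100 the highest. The median percentile of peaks near the 35 genes ranged from 53.6 (LRSKBr3) to 70.0 (BT-474 EGF), against 51.4 (BT-474 vehicle) to 54.6 (SKBr3 vehicle) for peaks near any gene. List by list the difference was smallest in LRSKBr3, with 53.6 against 53.0. For promoter peaks the median of the 35 genes was lower in LRSKBr3 (53.2, all promoter peaks 59.0) and higher in the other lists. Many strong peaks share a score of 3100.0, so that percentiles of about 98.6 to 98.8 in the SKBr3, pSKBr3 and LRSKBr3 lists are ties. The same holds for 98.3 on BT-474 vehicle and 98.4 on BT-474 HRG. Some scores lay above it, as at CPT1A on SKBr3 EGF (99.9) and ECI1 on BT-474 EGF (100).

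Of the genes of activation and uptake, the long-chain acyl-CoA synthetase ACSL1 had its promoter peak at the 59.8, 75.8 and 85.8 percentiles in SKBr3 on vehicle, EGF and HRG, and at 95.0, 95.5 and 96.9 in BT-474. That peak was at 53.6 in LRSKBr3 and absent in pSKBr3, where the strongest peak (86.0) lay 11825 bp from a start. A second ACSL1 site, downstream of the gene at chr4:185665913-185671641, was present in all 8 lists at 86.0 (pSKBr3) to 94.7 (BT-474 HRG). ACSL3, a paralog, had its strongest peaks at 87.7, 95.1 and 98.6 in SKBr3, 92.8, 91.3 and 96.0 in BT-474, 77.6 in pSKBr3 and 87.1 in LRSKBr3. The pSKBr3 list held 1 ACSL3 peak in range and the other lists 5 to 8.

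ACSL5 was bound away from its starts. Its strongest peak was at 94.0, 96.7 and 95.8 in SKBr3, 73.3, 64.2 and 81.6 in BT-474, 79.8 in pSKBr3 and 94.3 in LRSKBr3. A site 3592 bp from an ACSL5 start at its closest was present in the 5 SKBr3, pSKBr3 and LRSKBr3 lists and in none of the BT-474 lists. ACSL6 had 1 intronic site, the one with the printed word, at 37.7, 36.4 and 41.2 in SKBr3, 15.7 and 19.7 in BT-474 on vehicle and HRG, and 49.9 in LRSKBr3. It was not called on BT-474 EGF or in pSKBr3. ACSL4 had a single peak upstream, 6826 bp from a start on BT-474 vehicle (28.8) and 7011 bp on BT-474 HRG (27.6). The very long-chain acyl-CoA synthetase and transporter SLC27A2 had an intronic site in the 3 BT-474 lists, at 74.8 on vehicle, 69.1 on EGF and 76.6 on HRG, and a weak peak (9.74) 17515 bp upstream in LRSKBr3.

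The carnitine palmitoyltransferase CPT1A, which catalyses the rate-limiting entry of long-chain acyl groups into mitochondria, carried 6 to 9 peaks per list. Its strongest peak was at 98.6, 99.9 and 98.6 in SKBr3 on vehicle, EGF and HRG, at 98.3, 97.3 and 96.9 in BT-474, at 98.8 in pSKBr3 and at 98.7 in LRSKBr3. Promoter and intronic sites were both strong. The 5′ promoter site at chr11:68609397-68612987 ranged from 95.9 (SKBr3 EGF) to 98.8 (pSKBr3), and the site at starts within the gene body, chr11:68583795-68587935 from 95.0 (SKBr3 vehicle) to 99.9 (SKBr3 EGF). The intronic peak over the printed word ranged from 77.1 (BT-474 EGF) to 98.7 (LRSKBr3). In the 3 BT-474 lists it stood at 82.4, 77.1 and 88.8, and in the other 5 lists at 97.3 or above. On SKBr3 HRG that peak was broad, chr11:68598852-68607736, and covered both TCAAGGTCA words.

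**Figure D3:**
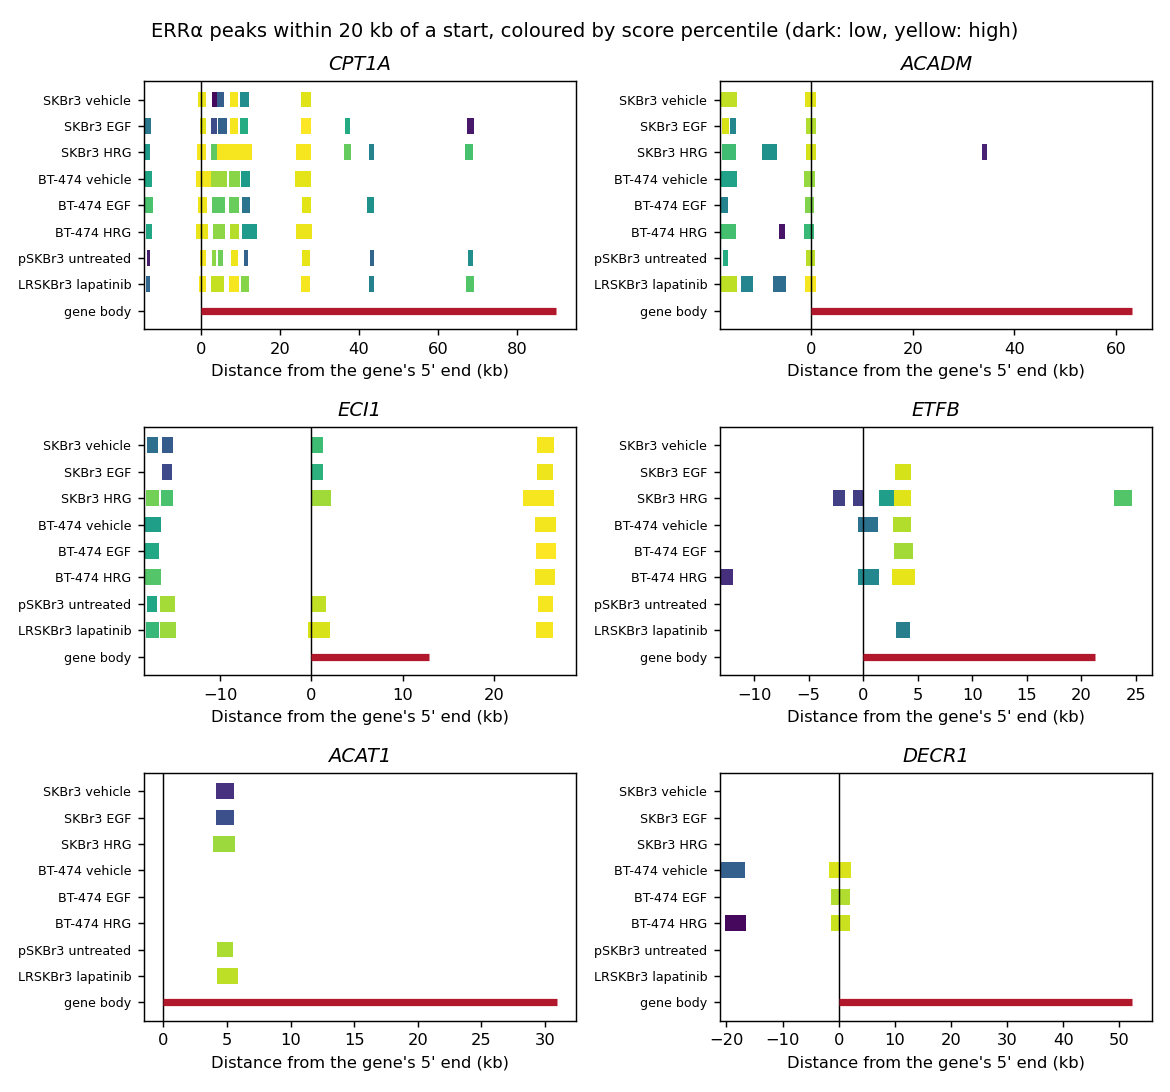
ERRα peaks within 20 kb of a start at 6 genes, drawn as distance in kb from the 5′ end of the gene in the direction of transcription, with 1 track per list and the gene body in red. Colour gives the score percentile within the list, from dark (low) to yellow (high). CPT1A carried 6 to 9 peaks in each list, the DECR1 promoter peak was drawn in the 3 BT-474 tracks only and the ACAT1 peak in the 5 other tracks only.

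CPT2, the carnitine palmitoyltransferase of the inner membrane, had a promoter peak at 68.2, 59.4 and 55.0 in SKBr3, 20.2 and 19.1 in BT-474 on vehicle and EGF, 58.2 in pSKBr3 and 76.4 in LRSKBr3. A second CPT2 site, chr1:53685368-53687193, lay closer to a start of CZIB and stood at 35.2 on SKBr3 HRG, 84.8 in pSKBr3 and 49.1 in LRSKBr3. On BT-474 HRG its nearest peak lay 37760 bp away. The carnitine acetyltransferase CRAT had a promoter peak in all lists, at 62.5, 85.0 and 89.3 in SKBr3, 93.4, 84.8 and 89.5 in BT-474, 50.4 in pSKBr3 and 47.3 in LRSKBr3. The muscle isoform CPT1B had peaks in range in the 5 SKBr3, pSKBr3 and LRSKBr3 lists and on BT-474 HRG, but a promoter peak (27.7) only on SKBr3 HRG. One of its sites, chr22:51000956-51002704, stood at 52.2, 47.3 and 81.4 in SKBr3, 35.5 on BT-474 HRG, 74.2 in pSKBr3 and 70.8 in LRSKBr3. It lay closer to a start of SYCE3, and CPT1B shares exons with the readthrough gene CHKB-CPT1B, so these peaks cannot be assigned to CPT1B alone. The brain isoform CPT1C had 6 peaks in range on SKBr3 HRG, including 1 at its promoter (42.0), and 2 each in pSKBr3 and LRSKBr3. Its strongest peaks, at 82.9, 63.6 and 81.9, lay in an intron of the neighbouring gene PRMT1.

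Among the acyl-CoA dehydrogenases, which carry out the first oxidation, ACADM (medium chain) had a promoter peak in all 8 lists. It stood at 95.6, 88.2 and 93.5 in SKBr3, 84.0, 81.0 and 67.4 in BT-474, 89.8 in pSKBr3 and 98.7 in LRSKBr3. A second ACADM site upstream, chr1:76172169-76175572, was also present in all 8 lists, at 44.8 (BT-474 EGF) to 93.9 (SKBr3 EGF). ACADVL (very long chain) had a promoter peak at 75.7, 73.8 and 88.2 in SKBr3, 81.4 in pSKBr3, 51.4 in LRSKBr3 and 5.67 on BT-474 vehicle, and none on BT-474 EGF or HRG. ACADL (long chain) had an intragenic site in BT-474 only, at 55.0, 17.9 and 57.7 on vehicle, EGF and HRG, and its nearest peak in the other lists was at least 214260 bp away.

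ACAD10 and ACAD11, further members of the dehydrogenase family, also had promoter peaks. At the ACAD10 promoter the peak stood at 86.4, 84.6 and 89.3 in SKBr3, 53.2, 32.7 and 41.4 in BT-474, 92.3 in pSKBr3 and 93.7 in LRSKBr3. The site of the printed word near ACAD10 stood at 78.1, 78.9 and 76.4 in SKBr3, 59.4, 34.6 and 48.7 in BT-474, 60.7 in pSKBr3 and 84.4 in LRSKBr3.

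Another ACAD10 site, chr12:112194320-112197096, lay 5097 bp or more from a start and was also present in all 8 lists. It stood at 94.5, 80.2 and 89.1 in SKBr3, 90.4, 81.5 and 70.5 in BT-474, 95.5 in pSKBr3 and 98.7 in LRSKBr3. This site was thus ranked above the ACAD10 promoter peak in every list except SKBr3 EGF and HRG. The centres of its peaks lay closer to a start of ENSG00000257767 than to one of ACAD10. The ACAD11 peak stood at 48.2, 33.5 and 74.1 in SKBr3, 66.7 in pSKBr3 and 76.7 in LRSKBr3. It had no counterpart in BT-474, where ACAD11 had weak peaks elsewhere on EGF (11.6) and HRG (20.1). ACADSB and ACAD8, which act in the breakdown of branched-chain amino acids, had promoter peaks on SKBr3 HRG (39.8 at ACADSB and a lower percentile at ACAD8), in pSKBr3 (3.10 and 11.5) and in LRSKBr3 (39.2 and 57.1), and none on SKBr3 vehicle or EGF.

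The trifunctional protein subunits HADHA and HADHB, which carry out the last steps for long chains, are transcribed in opposite directions from 1 promoter and share 3 sites. The site between them, chr2:26464406-26468795, stood at 73.5, 70.3 and 83.9 in SKBr3, 82.5, 70.0 and 85.6 in BT-474, 92.3 in pSKBr3 and 94.7 in LRSKBr3. A second shared site, chr2:26477754-26479900, stood at 78.1 on vehicle and 49.2 on EGF in SKBr3, at 83.9, 80.5 and 81.4 in BT-474 and at 81.7 in LRSKBr3. These peaks count for both genes, so the pair is not 2 independent observations. On BT-474 EGF and HRG the centre of the peak lay within 1 kb of a HADHB start and 1639 and 1173 bp from the nearest HADHA start.

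HADH, the short-chain hydroxyacyl-CoA dehydrogenase, had a peak at its 5′ promoter on SKBr3 vehicle (16.7) and HRG (26.4), in pSKBr3 (25.7) and in LRSKBr3 (53.2), and one at an inner start on SKBr3 vehicle (30.0) and in LRSKBr3 (47.0). An intronic site stood at 43.8, 56.0 and 74.6 in SKBr3 and at 77.1 in LRSKBr3. In BT-474 its strongest peak was 17951 to 18093 bp away, at 77.6, 79.0 and 81.2. The thiolase ACAA2 had a promoter peak in the 3 SKBr3 lists, from 23.9 on vehicle to 51.1 on HRG, and at 54.8 in LRSKBr3, and a separate upstream site on BT-474 vehicle (64.9) and EGF (58.7) and in LRSKBr3 (11.7). It had no peak in range on BT-474 HRG or in pSKBr3. HSD17B10, a hydroxyacyl-CoA dehydrogenase, had a site 6681 bp or more away in all 8 lists, at 41.5 (SKBr3 vehicle) to 83.6 (SKBr3 HRG), and promoter peaks on SKBr3 HRG (8.32) and in LRSKBr3 (43.6).

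ECHS1, the enoyl-CoA hydratase, and ACAT1, the acetyl-CoA acetyltransferase, were the 2 genes with a peak in all 5 SKBr3, pSKBr3 and LRSKBr3 lists and in none of the BT-474 lists (5.71%, all genes 5.66%). The ACAT1 promoter peak stood at 14.2 on vehicle, 24.4 on EGF and 85.0 on HRG in SKBr3, at 87.4 in pSKBr3 and at 90.2 in LRSKBr3. These are ranks within lists of different length, so they do not compare the amount of binding between conditions. ECHS1 had an intronic peak, closer to a start of FUOM, at 77.7, 47.7 and 63.1 in SKBr3, 82.9 in pSKBr3 and 87.3 in LRSKBr3.

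For unsaturated fatty acids, whose double bonds need extra enzymes, the enoyl-CoA isomerase ECI1 had a very strong site 17000 to 17817 bp from its start, in an intron of E4F1. This site, chr16:2275547-2279121, was at 98.6, 97.3 and 98.6 in SKBr3, 98.3, 100 and 98.4 in BT-474, 98.8 in pSKBr3 and 98.7 in LRSKBr3. Its distance leaves the assignment to ECI1 uncertain. The ECI1 promoter itself had a peak in the 5 SKBr3, pSKBr3 and LRSKBr3 lists, at 68.7, 63.8 and 85.8 in SKBr3, 90.4 in pSKBr3 and 94.1 in LRSKBr3, and none in BT-474. ECI2, a second isomerase, showed a site in all 8 lists at chr6:4129906-4132214. It stood at 91.3, 92.1 and 93.2 in BT-474 and at 78.9, 62.0 and 10.4 in SKBr3 on vehicle, EGF and HRG, each a rank within its own list. It stood at 36.5 in pSKBr3 and 72.3 in LRSKBr3. A promoter peak of ECI2 was called in BT-474 (50.3, 44.7 and 28.3) and in LRSKBr3 (42.4).

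DECR1, the dienoyl-CoA reductase, had a promoter peak at 94.5 on vehicle, 88.2 on EGF and 92.1 on HRG in BT-474. In the other 5 lists the nearest peak centre was at least 228015 bp away. DECR1 and ACADL were the 2 genes bound in all 3 BT-474 lists and in none of the other 5 (5.71%, all genes 2.13%). Neither this pattern nor the reverse one of ECHS1 and ACAT1 was a planned count. The DECR1 promoter lies beside that of NBN, so the peak is in range of both genes.

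Of the electron transfer genes, ETFDH, which passes electrons to ubiquinone, had a promoter peak in all 8 lists, at 83.0, 70.7 and 91.1 in SKBr3, 62.5, 44.4 and 63.2 in BT-474, 72.1 in pSKBr3 and 88.2 in LRSKBr3. ETFA and ETFB encode the subunits of the electron transfer flavoprotein. ETFB had an intronic site holding the printed word, at 93.6 on EGF and 95.2 on HRG in SKBr3, at 88.6, 86.2 and 96.1 in BT-474 and at 42.7 in LRSKBr3. On SKBr3 vehicle and in pSKBr3 the nearest peak lay 201560 and 227864 bp away. ETFA had its strongest peak at 74.5 on SKBr3 HRG, at 81.4, 45.5 and 78.0 in BT-474, at 47.2 in pSKBr3 and at 89.5 in LRSKBr3, while on SKBr3 vehicle and EGF the nearest peak lay 31354 and 31430 bp away.

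Of the peroxisomal genes, ACOX3, a branched-chain acyl-CoA oxidase, had a promoter peak on SKBr3 EGF (23.5) and HRG and in LRSKBr3 (29.2). Its intronic site holding the printed word was at 37.0, 71.0 and 89.1 in SKBr3, 24.8 in pSKBr3 and 56.5 in LRSKBr3, with none in BT-474. A second ACOX3 intronic site, chr4:8423275-8425211, stood at 78.4, 42.4 and 74.9 in BT-474, 7.07 on SKBr3 vehicle and 44.1 in LRSKBr3.

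EHHADH, the peroxisomal bifunctional enzyme, had promoter peaks on SKBr3 EGF (1.21) and HRG (21.4), in pSKBr3 (32.8) and in LRSKBr3 (16.3). One intronic site of EHHADH stood at 80.4 on SKBr3 vehicle, 43.4 on EGF and 7.54, 39.0 and 64.6 in BT-474. Another stood at 65.8, 74.2 and 23.9 in SKBr3 and at 58.4 in LRSKBr3. The peroxisomal thiolase ACAA1 had single peaks at different places on BT-474 vehicle (22.4) and HRG (28.5), and in LRSKBr3 a broad peak over its promoter (35.9) that spanned chr3:38170376-38181551.

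Between lists, a gene was called gained when a peak was in range in the treated list and not in the control list, and lost in the reverse case. Vehicle served as control for both growth factors in each line, so these comparisons share control lists. In SKBr3, EGF gained 1 gene within 20 kb, ETFB (all genes, 7.82%), and lost 0 (5.66%). HRG gained 5, CPT1C, ACADSB, ACAD8, ETFA and ETFB (14.3%, all genes 16.7%), and lost 0 (4.32%). The 5 genes gained on HRG were close to the share of all genes.

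At promoters of SKBr3, EGF gained ACOX3 and EHHADH (all genes, 4.13%) and lost HADH (5.14%). HRG gained 9 promoters, those of CPT1B, CPT1C, ACADSB, ACAD8, HSD17B10, ETFA, ETFB, ACOX3 and EHHADH (25.7%, all genes 15.9%), and lost that of ACSL3 (3.38%). With lists of equal size, promoter peaks were found at 17 genes on HRG (all genes 26.0%) and 13 on vehicle (all genes 18.8%). With peaks of P at most 1e-10 they were found at 17 (all genes 27.3%) and 12 (all genes 17.5%). The full lists had 24 and 16. The 9 peaks gained had a median percentile of 27.7 and a median GC content of 61.2% within 100 bp of the centre, against 85.4 and 64.2% for the 18 promoter peaks present on both. Over all genes the median percentiles were 39.7 for the promoter peaks gained on HRG and 69.8 for those present on both, and the median GC contents were 61.7% and 59.7%, so the order of the GC medians was the reverse of that among the 35 genes. CPT1C, ACADSB, ACAD8 and ETFA shared a further pattern, a peak within 20 kb on SKBr3 HRG, in pSKBr3 and in LRSKBr3 but not on SKBr3 vehicle or EGF (11.4%, all genes 4.99%). This pattern was not a planned count, so no conclusion is drawn from its share. The strongest CPT1C peaks lay in an intron of PRMT1.

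In BT-474, EGF gained ACAD11 (all genes, 3.06%) and lost ACSL4, ACSL6, ACADVL, ACADSB and ACAA1 (14.3%, all genes 13.8%). HRG gained CPT1B and ACAD11 (8.24%) and lost CPT2, ACADVL, ACADSB and ACAA2 (11.4%, all genes 5.92%). Of the 28 genes with a peak on vehicle, EGF lost 5 and HRG lost 4. Over all genes, 25.9% and 11.1% of the 10626 with a peak on vehicle were lost. The peaks lost on EGF were weak on vehicle, at 28.8, 15.7, 5.67, 19.9 and 22.4. At promoters, EGF gained 0 (1.09%) and lost those of ACSL3, SLC27A2, ACADVL, HADHA and ETFB (9.22%), and HRG gained 0 (3.24%) and lost those of CPT2, ACADVL and HADHA (5.87%). The HADHA site was still called, at 70.0 on EGF and 85.6 on HRG, with its peak centre more than 1 kb from a HADHA start. The ETFB site chr19:51864934-51870541 was also still called on EGF, at 86.2. The EGF list is the shortest in BT-474, with 26832 peaks against 32259 on vehicle. With all lists limited to their 22539 strongest peaks, EGF lost 0 of the 35 genes (all genes 8.52%) and HRG lost 1 (all genes 7.60%).

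In LRSKBr3 against pSKBr3, peaks within 20 kb were gained at ACSL6, SLC27A2, ACAA2, ETFB and ACAA1 (14.3%, all genes 14.8%) and lost at 0 (1.85%). Of the 9 genes without a peak in pSKBr3, 5 were gained. Over all genes, 34.9% of the 8420 without a peak in pSKBr3 were gained. The LRSKBr3 list holds 39777 peaks and the pSKBr3 list 22539, and with lists of equal size 2 of the 35 genes were gained (all genes 5.55%) and 1 was lost (all genes 6.89%). With peaks of P at most 1e-10, 10 genes were gained (all genes 15.9%). Promoter peaks were gained at ACSL1, ACSL3, ACAA2, HSD17B10, ECI2, ACAA1 and ACOX3 (7 of the 35, all genes 12.5%) and lost at ECHS1 and ETFA (5.71%, all genes 2.05%). At ETFA the LRSKBr3 peak was present but its centre lay 1384 bp from the start. The 10 promoter peaks at the gained genes had a median percentile of 32.6, against 76.6 for the 20 peaks at promoters bound in both lists. Over all genes the promoter peaks present in both lists had a median of 69.5, and those at gained genes a median 37.5 percentile points lower.

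**Figure D4:**
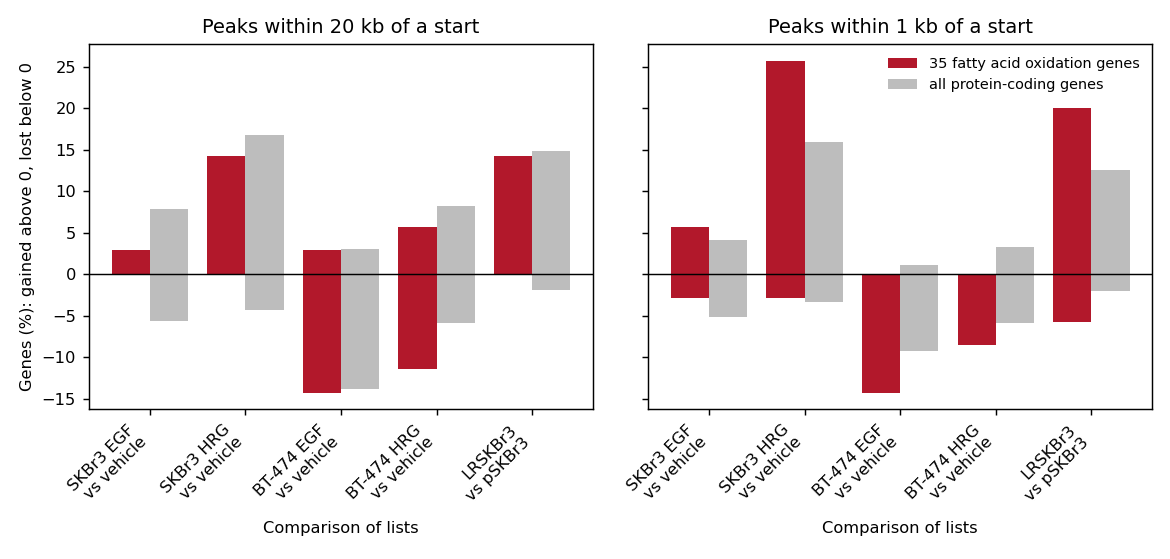
Percent of genes gained (above 0) or lost (below 0) in 5 comparisons of a list with its control, for peaks within 20 kb (left) and 1 kb (right) of a start. Red bars are the 35 fatty acid oxidation genes and grey bars all 19881 protein-coding genes, with 1 list per condition and no error bars. On SKBr3 HRG the red bar reaches 25.7% at 1 kb against 15.9% for all genes, and 14.3% against 16.7% at 20 kb. Shares are of all genes, with or without a peak in the control list.

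Sites near the 35 genes were classed within each line, with the share among all sites of that line given second. In SKBr3, 38 of 95 sites were common to vehicle, EGF and HRG (all sites 28.9%), 44 were called on a growth factor and not on vehicle (46.3%, all sites 43.7%) and 6 on vehicle only (6.32%, all sites 15.1%). In BT-474, 39 of 73 were common (53.4%, all sites 37.2%) and 18 called on a growth factor and not on vehicle (24.7%, all sites 37.5%). With peaks of P at most 1e-10, those 18 became 4 (all sites 27.0%). In pSKBr3 and LRSKBr3, 47 of 90 were common (52.2%, all sites 44.6%), 42 specific to LRSKBr3 (46.7%, all sites 48.7%) and 1 specific to pSKBr3 (1.11%, all sites 6.72%), the ECHS1 promoter. When sites were joined by centres within 500 bp, 14 were specific to pSKBr3 (all sites 12.1%). The sites of all genes and of intergenic regions are counted in the second percentages, and the part that nearness to a gene has in the difference was not tested.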

How the data were processed

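ERRα ChIP-seq reads had been aligned to hg19 with BWA 0.5.9 and handled with SAMtools 0.1.18, per the submitters' processing notes, and the authors called peaks with MACS at a P cutoff of 1e-05 against input. The score deposited with each peak was taken as the MACS value, a multiple of −log10 of the P-value, because the lowest score, 50.0, matches that cutoff. The SKBr3 lists also carry comment lines naming FindPeaks, so this is an assumption. The alternative with peaks of P at most 1e-10 rests on it. The lists hold no tag counts, so the depth is unknown, and replicates were pooled before deposit. Apart from the alternatives on P threshold and list size, scores were used only as percentiles within a list.

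Starts came from the GENCODE annotation of protein-coding genes lifted to GRCh37, and sequences from the GRCh37 genome. A gene was counted when a peak centre lay within 20 kb (promoter, 1 kb) of any of its starts. Overlapping peaks (at least 1 bp) were merged into sites. ERRE words were searched within 100 bp of peak centres and in whole peaks. Wilson intervals are at 95%. All 35 genes are named, by a rule that asked for the values of genes bound in all lists with an ERRE word and of genes gained or lost, and further sites of these genes are not all given. Other genes of fatty acid breakdown (32), regulators (11) and synthesis (27) were counted in the same way. The members and lists were chosen with earlier results of these data known. The alternatives concerned the P threshold, list size, distance, starts, nearest gene, site merging and ERRE word. Assignment, merging and word search were tested on simulated data. Python 3.11.15, numpy 2.4.6, scipy 1.17.1, pysam 0.24.0 and matplotlib 3.10.9 were used. No condition had replicate lists, and no test was made.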

Additional observations from a re-analysis of the deposited data

Results flagged for a closer look

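ACADSB, the short/branched-chain acyl-CoA dehydrogenase, was called in opposite directions on HRG in the 2 cell lines. In SKBr3 a promoter peak at the 39.8 percentile was present on HRG, chr10:124768030-124768900, and no peak was in range on vehicle. In BT-474 a peak at the 19.9 percentile was present on vehicle, chr10:124779023-124780751, and none was in range on HRG. The peaks lie at different places, in the intergenic promoter region and in an intron, and both are below the middle of their own list. With peaks of P at most 1e-10, and with lists of equal size, the BT-474 vehicle peak was left out, so ACADSB was no longer lost in BT-474 and the opposite directions ended. The difference between the lines was not tested, since each condition has 1 list.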

How the results depend on the processing

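Under the alternatives, 169 recomputed values stayed within 1.5 times the reported count or within its interval and 29 did not. The numbers of the 35 genes with a peak in each list, within 20 kb or 1 kb, were among the former throughout. The share of all genes, or of all sites, under the same alternative follows each count. With peaks of P at most 1e-10, EGF gained 3 (7.07%) and lost 1 gene (6.13%) in SKBr3 and gained 0 (1.18%) and lost 2 (13.1%) in BT-474. HRG lost 2 (4.80%) in SKBr3 and gained 1 (1192 of the 19881 genes) and lost 1 (5.60%) in BT-474, LRSKBr3 gained 10 (15.9%), and 2 genes were bound in no list (24.8%). Sites on vehicle only numbered 0 in SKBr3 (4490 among all sites) and 0 in BT-474 (11.7%), and those called on a growth factor and not on vehicle numbered 4 in BT-474 (27.0%). With lists of equal size, EGF gained 2 (6.70%) in SKBr3, and gained 2 (4.13%) and lost 0 (8.52%) in BT-474. HRG lost 2 (6.10%) in SKBr3 and gained 1 (4.21%) and lost 1 (7.60%) in BT-474, LRSKBr3 gained 2 (5.55%) and lost 1 (6.89%), and 3 genes were bound in no list (23.9%). Within 10 kb, EGF gained 2 (6.98%) in SKBr3. With the 5′-most start, HRG lost 1 (4.87%) in SKBr3 and EGF gained 0 (3.02%) in BT-474. With the nearest gene only, HRG lost 1 (5.01%) in SKBr3 and gained 1 (7.53%) in BT-474, and LRSKBr3 lost 1 (2.59%). With sites joined by centres within 500 bp, 16 SKBr3 sites were present on vehicle and 1 growth factor (12.7%) and 14 were specific to pSKBr3 (12.1%). Fewer peaks enter the first 2 alternatives by construction, and the cause of the other changes was not tested. No paired analysis was possible because each condition has 1 peak list and no result comes from a test. The unknown depth of the libraries limits every statement on absence, since a peak not called may lie below the threshold.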

Other observations

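Among 11 regulators of fatty acid oxidation, PPARGC1B (a coactivator of ERRα), PDK4 (a kinase that inhibits pyruvate dehydrogenase), PRKAA1 (a catalytic subunit of AMPK) and LPIN1 had a peak within 20 kb in all 8 lists (4 of 11, all genes 27.1%). LPIN1 also had a promoter peak in all 8. Per list, 6 to 9 of the 11 genes had a peak in range, against 42.7% to 70.6% of all genes. PPARGC1A, the coactivator best known as a partner of ERRα, had one on BT-474 HRG and in no other list, and is named here after its values were seen.

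Of 32 other genes of fatty acid breakdown, 17 (53.1%, BT-474 EGF) to 27 (84.4%, LRSKBr3) had a peak within 20 kb, and 4 (12.5%, BT-474 EGF) to 19 (59.4%, SKBr3 HRG and LRSKBr3) a promoter peak. The shares of all genes in those lists were 42.7% on BT-474 EGF and 70.6% in LRSKBr3 within 20 kb, and 11.5% on BT-474 EGF, 36.1% on SKBr3 HRG and 42.2% in LRSKBr3 at promoters. PCCB, a subunit of propionyl-CoA carboxylase, and MCEE, the methylmalonyl-CoA epimerase, had a promoter peak in all 8 lists (2 of 32, all genes 6.63%), and PECR, HACL1 and SLC27A6 had no peak in range in any list (3 of 32, all genes 14.6%).

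For comparison, 14 (51.9%, BT-474 EGF) to 22 (81.5%, SKBr3 HRG and LRSKBr3) of 27 fatty acid synthesis genes had a peak within 20 kb, and 4 (14.8%, the 3 BT-474 lists) to 13 (48.1%, LRSKBr3) a promoter peak. Within 20 kb the shares of all genes were 42.7% on BT-474 EGF, 67.0% on SKBr3 HRG and 70.6% in LRSKBr3. At promoters they were 19.6%, 11.5% and 17.0% in BT-474 on vehicle, EGF and HRG and 42.2% in LRSKBr3. OXSM, ELOVL6, ELOVL7 and HSD17B12 had a promoter peak in all 8 lists (4 of 27, all genes 6.63%), and ACACA, ELOVL2, HACD1 and HACD4 had no peak in range in any list (4 of 27, all genes 14.6%). Differences between the lists of genes were not tested.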
